A study of Mus musculus with 4 samples.

Results

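Pax6 and its effector factors are 9 transcription factor genes: Pax6 itself, the SoxC genes Sox4 and Sox11, the nuclear factor I genes Nfia, Nfib and Nfix, and the POU genes Pou3f2, Pou3f3 and Pou3f4. They were chosen by name, with earlier results of these data known, out of 19937 genes that a probe set named alone on the arrays. All 9 had such a probe set, and 3 of them had 2, so that 12 probe sets stood for them. Each gene was read from its brightest probe set over the 4 arrays, and all 9 lay among the 13956 genes bright enough to be tested.

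Pax6 is a paired-box and homeodomain factor that directs progenitors of the brain towards a neuronal fate. In mouse neurosphere cells it is known to work with the BAF chromatin remodelling complex, whose motor is Smarca4, and to switch on Sox11, Nfib and Pou3f4, which then keep each other and the neuronal program active. SoxC factors activate genes of young neurons, nuclear factor I proteins act in neural progenitors and in the onset of glial genes, and Pou3f factors work beside proneural factors in the turn from progenitor to neuron.

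Transcript levels were measured in primary neurospheres, floating balls of stem and progenitor cells, grown from the lateral walls of the lateral ventricles of C57BL/6 mice aged 9 to 12 weeks. In one group of 2 arrays the cells were kept in 100 nM olaparib, a drug that blocks PARP1 and PARP2, which attach ADP-ribose chains to proteins at DNA breaks, dissolved in 0.01% DMSO. In the other group of 2 arrays the cells had 0.01% DMSO alone. Cells of both groups first received 75 pmol of non-targeting siRNAs, and 4 h later were exposed for 5 h to pCLIG-Pax6 viral particles with the drug or solvent. They were then cultured for 36 h, and differentiated by plating on laminin without growth factors, which began 10 h before RNA isolation. All 4 arrays thus came from cells given Pax6, there was no group without the virus, and the labels mention no sorting of transduced cells. The labels call the second array of a group a biological replicate but name no separate animals or cultures, so p-values measure the spread between these arrays. The comparison asks how PARP inhibition alters expression in cells driven towards neurons with Pax6.

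The medians of the 4 arrays ran from 6.60 to 6.68 on the log2 scale. Of 26 genes of unrelated tissues on the arrays the highest averaged 7.09, and the group means of all 9 factor genes lay above that, with Pou3f3 nearest to it at 7.21 in its dimmer group. All 12 astrocyte and neural stem cell markers were bright enough to test, at means of 8.33 to 12.70. Of 12 neuronal markers 11 were, and Dcx, Tubb3, Map2, Gap43 and Ncam1 lay between 8.59 and 10.32. Rbfox3, Elavl4, Syt1 and the untested Stmn2 had group means below 7.09, within the range of the unrelated genes. The filter for testing, 6.42, lay below 7.09 too, so a tested gene need not be expressed. Microglial markers did not exceed 6.86. Of the 10 vascular and fibroblast markers 7 were too dim to test, and Acta2, at 8.13, was the brightest. In limma, 6.22% of the genes tested passed an adjusted p of 0.05, 2.84% as higher and 3.37% as lower with olaparib.

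Promoter sequences are shown for the genes whose levels fell with olaparib, Nfia and Pou3f4, and for Pou3f3 and Sox4, which did not pass. RefSeq windows on GRCm38.p6, from 250 bases before to 50 after a gene start, were at hand for 8 of the 9 genes, all but Nfib, in 12 windows. Capitals mark CCAAT or its reverse complement ATTGG, the CCAAT box, a common promoter element.
Nfia, chr4:97581693-97581992, plus strand: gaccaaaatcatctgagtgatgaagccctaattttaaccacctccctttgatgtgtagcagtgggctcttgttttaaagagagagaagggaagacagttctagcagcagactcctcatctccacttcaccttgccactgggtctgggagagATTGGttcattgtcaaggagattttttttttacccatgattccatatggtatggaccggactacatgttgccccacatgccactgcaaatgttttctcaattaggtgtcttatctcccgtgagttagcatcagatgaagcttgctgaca
Pou3f4, chrX:110814129-110814428, plus strand: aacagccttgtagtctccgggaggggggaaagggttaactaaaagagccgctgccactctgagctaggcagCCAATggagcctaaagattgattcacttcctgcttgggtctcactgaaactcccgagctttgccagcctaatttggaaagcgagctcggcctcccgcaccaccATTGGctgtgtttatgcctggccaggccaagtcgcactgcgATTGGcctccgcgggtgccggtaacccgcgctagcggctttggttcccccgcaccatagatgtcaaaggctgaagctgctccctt
Pou3f3, chr1:42695518-42695817, plus strand: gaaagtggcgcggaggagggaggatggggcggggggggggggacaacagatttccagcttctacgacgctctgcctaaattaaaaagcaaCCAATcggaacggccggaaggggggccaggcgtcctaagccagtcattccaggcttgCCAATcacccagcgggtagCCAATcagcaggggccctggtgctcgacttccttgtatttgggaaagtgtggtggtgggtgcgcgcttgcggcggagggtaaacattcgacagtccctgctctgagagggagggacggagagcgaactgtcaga
Sox4, chr13:28953650-28953949, minus strand: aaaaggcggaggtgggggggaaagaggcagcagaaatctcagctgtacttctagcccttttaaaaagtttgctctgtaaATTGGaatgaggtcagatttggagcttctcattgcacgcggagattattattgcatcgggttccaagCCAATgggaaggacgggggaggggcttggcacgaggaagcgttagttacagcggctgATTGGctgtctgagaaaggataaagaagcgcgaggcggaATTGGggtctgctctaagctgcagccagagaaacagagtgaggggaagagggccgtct
A CCAAT box stood in at least 1 window of all 8 genes and in 10 of the 12 windows. Among the 27025 genes with such windows in RefSeq, 41.1% had one in a window, and among all 32851 windows 37.4% did. The Nfia window held 1, at base 152 of the window, the Pou3f4 and Pou3f3 windows 3 each, and the Sox4 window 4. The element was picked out of 9 searched on both strands after their counts were seen, so no test is given. The others were the NFI motif TTGGCA, the full palindromic NFI motif, the SOX motif ACAAAG, the POU motifs ATGCAAAT and TAATGA, the E-box CAGCTG, the GC box GGGCGG and the TATA box TATAAA. The octamer ATGCAAAT was in none of the 12 windows and in 1.74% of all windows. TTGGCA or its reverse complement stood once each in the Pou3f2, Pou3f3 and Sox4 windows, against 14.1% of all windows, and in Pou3f3 it overlapped a CCAAT box. ACAAAG stood in 1 window each of Pax6 and Nfix, against 18.7% of all windows. A match of letters is a description, not a binding site.

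With olaparib 2 of the 9 genes fell, Nfia and Pou3f4, 0 rose, and 7 did not pass the test (limma, adjusted p under 0.05). That is 22.2% of the 9, where 6.22% of all genes tested passed. Shares over all genes tested, here and below, include genes as dim as those of unrelated tissues. With a filter at the 50th percentile, which all 9 genes cleared, 1005 of 9968 genes passed in limma, 529 of them as lower. Nfia, Nfix and Pou3f4 passed in that fit. The 9 had a median log2 change of -0.22, against 0.0013 over all genes tested, and 7 of the 9 changes were below 0, against 49.5% of all genes. Without olaparib replicate 1 the median of the 9 was -0.058, and without any 1 of the other arrays it was -0.28 to -0.16. In 5 of the 9 (Nfia, Nfix, Pou3f4, Sox4 and Sox11) both olaparib arrays lay below both DMSO arrays, while separated groups in either direction occurred in 47.1% of all genes tested. At an unadjusted p under 0.05 in limma there were the same 5 lower and 0 higher, or 55.6% of the 9, where 19.1% of all genes tested reached that p. Both calls were lost when either DMSO array was left out and when the 21704 probe sets over that signal were fitted together.

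**Figure D1:**
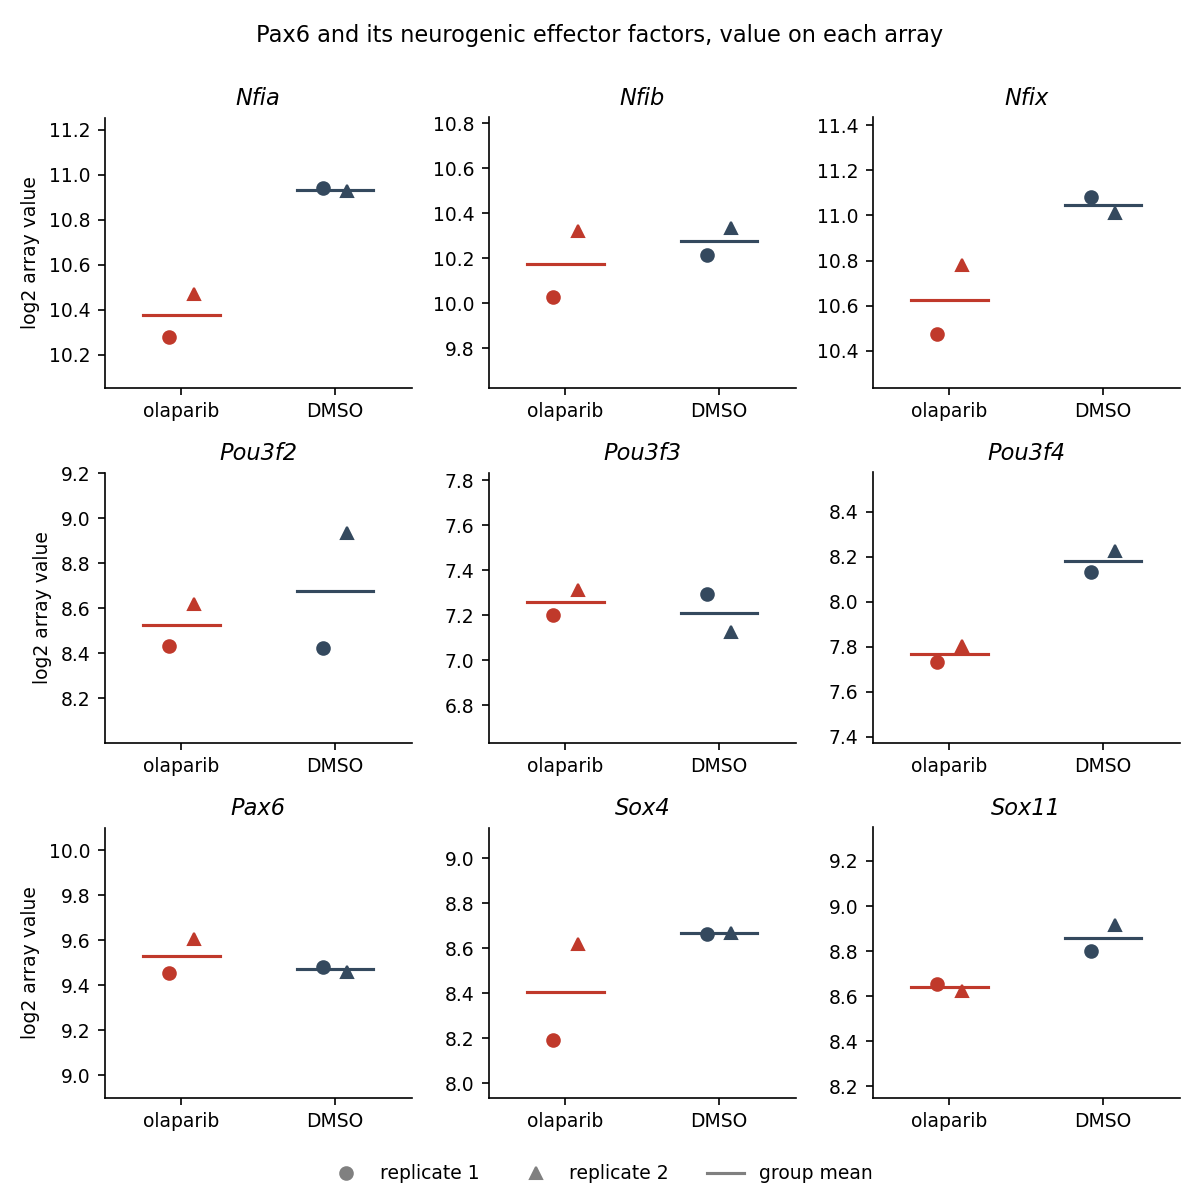
Value of each of the 9 genes on each array, on the log2 scale, with olaparib on the left and DMSO on the right of every panel. Circles are replicate 1, triangles replicate 2 and bars group means, and every panel spans the same height. The olaparib points lie below the DMSO points for Nfia, Nfix, Pou3f4, Sox4 and Sox11, and the groups overlap for Pax6, Nfib, Pou3f2 and Pou3f3.

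Pax6, the factor supplied by the virus, had log2 values of 9.45 and 9.61 with olaparib, against 9.48 and 9.46 with DMSO. The groups overlapped, and all 4 values lay within a narrow band. The change was 0.059 (SE 0.11, 95% interval -0.18 to 0.29, adjusted p = 0.869 in limma), and -0.019 without olaparib replicate 2. Whether the probe set read RNA of the virus, RNA of the cell's own gene or both was not tested. Of the related Pax genes, Pax2, Pax5, Pax7 and Pax8 had changes of -0.0086 to 0.0055, at levels within the range of the genes of unrelated tissues.

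Nfia, the nuclear factor I gene that in mouse and chick spinal cord starts gliogenesis, fell most among the 9. It had log2 values of 10.28 and 10.47 with olaparib, against 10.94 and 10.93 with DMSO. Both olaparib arrays lay well below the DMSO pair, which differed by little. The change was -0.56 (SE 0.12, 95% interval -0.81 to -0.30, adjusted p = 0.00803 in limma), or 0.680 times the DMSO level. A second Nfia probe set gave 10.20 and 10.22 with olaparib, against 10.62 and 10.71 with DMSO. Its groups did not overlap either, and its change of -0.45 passed in the same limma fit (adjusted p = 0.0252).

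Nfix, a nuclear factor I gene that acts in the maturation of neural progenitors, had log2 values of 10.47 and 10.78 with olaparib, against 11.08 and 11.01 with DMSO. The groups did not overlap, with olaparib replicate 1 the lowest of the 4. The difference of -0.42 (SE 0.13, 95% interval -0.69 to -0.15) just missed the threshold in limma, at an adjusted p of 0.0552. It passed under 8 of its 16 alternatives and was below 0 under all 16, at -0.27 without olaparib replicate 1 and -0.57 without olaparib replicate 2.

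Nfib, the nuclear factor I gene named in the Pax6 network, had log2 values of 10.03 and 10.32 with olaparib, against 10.22 and 10.34 with DMSO. The groups overlapped, since olaparib replicate 2 lay above DMSO replicate 1. The change was -0.10 (SE 0.13, 95% interval -0.36 to 0.16, adjusted p = 0.765 in limma), and 0.045 without olaparib replicate 1. The second Nfib probe set differed by -0.10 too. Nfic, the remaining gene of the family, had 7.65 and 7.70 with olaparib, against 7.71 and 7.67 with DMSO, and differed by -0.018 (adjusted p = 0.959).

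Within an array the distance of one gene from another does not change when the whole array is scaled by 1 factor. Nfia minus Nfib was 0.25 and 0.15 on the log2 scale with olaparib, against 0.72 and 0.59 with DMSO, so the difference moved by -0.46. Nfib minus Nfix was -0.44 and -0.46 with olaparib and -0.86 and -0.67 with DMSO, and Nfia minus Nfix moved by -0.14. The groups were separated in all 3 pairs. With 2 arrays a group an exact two-sided permutation test cannot go below p = 0.3333, the value it gave for each of the 3, so the unequal change within the family is a description.

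Pou3f4, the POU gene named in the Pax6 network, was the other gene that fell. It had log2 values of 7.73 and 7.80 with olaparib, against 8.13 and 8.23 with DMSO. The groups were separated and each pair lay close together. The change was -0.41 (SE 0.091, 95% interval -0.60 to -0.22, adjusted p = 0.00869 in limma), or 0.752 times the DMSO level. Without any 1 array it was -0.46 to -0.36. The other alternatives all gave -0.41, and many of them cannot alter a difference of means. It passed in 13 of its 16 alternatives, among them a floor that changed nothing and an adjusted p of 0.1, which cannot lose a call.

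Pou3f2, which helps to drive neuronal fate when fibroblasts are converted to neurons, had log2 values of 8.43 and 8.62 with olaparib, against 8.42 and 8.94 with DMSO. The DMSO pair was the widest of any of the 9 genes, and DMSO replicate 1 was the lowest of the 4 arrays. The change was -0.15 (SE 0.13, 95% interval -0.43 to 0.12, adjusted p = 0.625 in limma), -0.41 without DMSO replicate 1 and 0.11 without DMSO replicate 2. Its dimmer probe set had 6.96 and 7.12 with olaparib, against 7.32 and 7.19 with DMSO, with separated groups and a difference of -0.22 (adjusted p = 0.140). Pou3f3, expressed with Pou3f2 in cortical progenitors, had 7.20 and 7.32 with olaparib, against 7.29 and 7.13 with DMSO. Its groups overlapped and its change was 0.047 (SE 0.083, 95% interval -0.13 to 0.22, adjusted p = 0.854).

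Pou3f3 minus Pou3f4 within an array was -0.53 and -0.49 with olaparib, against -0.84 and -1.10 with DMSO. The difference between the pair shifted by 0.46, with separated groups (exact two-sided permutation p = 0.3333, the smallest possible). The pairs with Pou3f2 overlapped between the groups, as did Sox4 minus Sox11, so 4 of 7 pairs within a family were separated. Among all genes tested, taken alone, the groups were separated in either direction in 47.1%. The share among gene pairs in general was not tested. The nuclear factor I pairs share their genes, so the separated pairs are not independent observations.

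Sox4 had log2 values of 8.19 and 8.62 with olaparib, against 8.66 and 8.67 with DMSO. The DMSO arrays were nearly equal, olaparib replicate 2 lay just under them, and olaparib replicate 1 lay far below. The change was -0.26 (SE 0.12, 95% interval -0.51 to -0.011, adjusted p = 0.236 in limma), -0.045 without olaparib replicate 1 and -0.47 without olaparib replicate 2 (adjusted p = 0.000391). Its size therefore rested on which olaparib array was used, and with 1 olaparib array the only within-group spread is that of the DMSO pair, with an SD of 0.0055 for Sox4 before limma moderated it. Sox11 had 8.66 and 8.62 with olaparib, against 8.80 and 8.92 with DMSO. Its groups were separated and its olaparib pair was close together, with a change of -0.22 (SE 0.10, 95% interval -0.44 to -0.0062, adjusted p = 0.246). Without any 1 array the difference for Sox11 was -0.28 to -0.16. The remaining SoxC gene, Sox12, had 6.96 and 7.10 with olaparib, against 7.20 and 7.19 with DMSO, a change of -0.17 (adjusted p = 0.259).

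**Figure D2:**
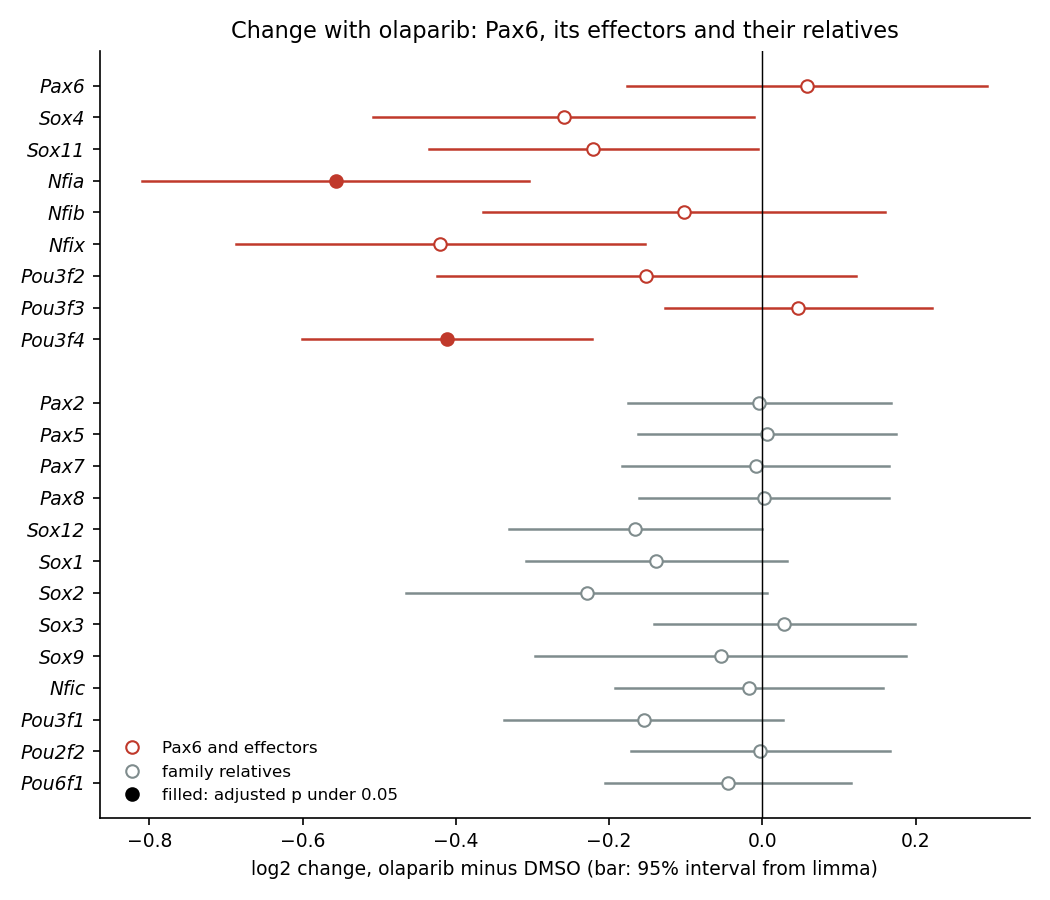
Log2 change, olaparib minus DMSO, of the 9 genes and of 13 relatives in their families that were bright enough to test, with 95% intervals from limma. Filled points passed an adjusted p of 0.05. Nfia at -0.56 and Pou3f4 at -0.41 are filled, and no relative is, with changes of -0.23 for Sox2 to 0.029 for Sox3. The median level of the 16 relatives on the arrays was 6.60, within the range of genes of unrelated tissues.

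Of 17 family relatives 16 had a probe set of their own, 13 were bright enough to test, and 0 of them passed in limma as higher or lower. Of these 1, Sox12, was at an unadjusted p under 0.05. The median change of the 13 was -0.018. At a median level of 6.60, the 16 lay largely within the range of genes of unrelated tissues, up to 7.09, where a change could be missed. Sox2, which holds progenitors in their stem cell state, had 9.55 and 9.63 with olaparib, against 9.78 and 9.85 with DMSO (change -0.23, adjusted p = 0.280).

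Olaparib replicate 1 lay below olaparib replicate 2 in 8 of the 9 genes, all but Sox11, and in 55.4% of all genes tested. Averaged over the 9 genes, the log2 level was 8.94 and 9.13 with olaparib, against 9.23 and 9.29 with DMSO. The 12 astrocyte and neural stem cell markers averaged 10.30 and 10.48 with olaparib, against 10.58 and 10.60 with DMSO, and in all 12 olaparib replicate 1 was the lower of its pair. Of these 12 markers 2 fell and 0 rose. Their changes were below 0 in 9, while Nes (0.23), S100b (0.17) and Vim (0.16) were higher on both olaparib arrays without passing. For all marker counts here, the shares over all genes tested were 3.37% lower and 2.84% higher. The 12 neuronal markers averaged 7.93 and 8.02 with olaparib, against 8.18 and 8.15 with DMSO, and of 11 tested Dcx, Map2 and Nsg2 (-0.74) fell while Gap43 rose by 0.57. Their part in the changes of the 9 genes was not tested. In such bulk samples fewer cells of a type and less RNA per cell cannot be told apart. Oligodendrocyte lineage markers averaged 7.76 and 7.77 with olaparib, against 7.73 and 7.72 with DMSO, and of 9 only Cspg4 passed, at 0.33. The calls of Gap43 and Cspg4 were lost without either DMSO array. Of the ependymal, microglial, vascular and unrelated markers tested, 0 passed in limma, with 1 ependymal and 1 microglial gene at an unadjusted p under 0.05.

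**Figure D3:**
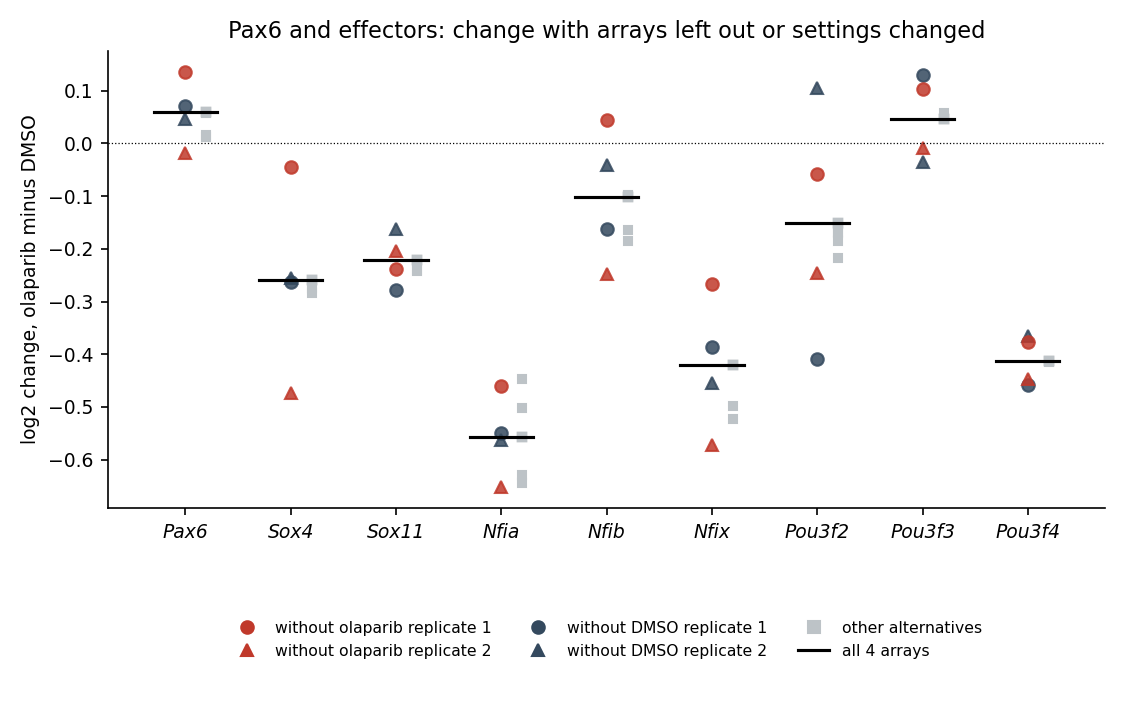
Log2 change, olaparib minus DMSO, of each of the 9 genes with all 4 arrays (bar), with 1 array left out (red for olaparib arrays, blue for DMSO arrays, circle for replicate 1 and triangle for replicate 2) and under the other alternatives (squares). Nfia, Nfix, Pou3f4, Sox4 and Sox11 stay below 0 throughout, while Sox4 runs from -0.47 to -0.045 and Pou3f2 from -0.41 to 0.11.

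Genes known as targets or partners of these factors were described from lists chosen with results of these arrays known. Of 22 targets and partners of Pax6, 16 were tested, 1 rose and 2 fell, with a median of -0.081, or -0.15 without olaparib replicate 1. Among all genes tested 2.84% rose and 3.37% fell. Hmga2, a chromatin protein of self-renewing progenitors, rose, with 7.29 and 7.48 with olaparib, against 7.01 and 6.89 with DMSO (change 0.44, SE 0.084, adjusted p = 0.0031 in limma). Gad2, an enzyme of GABA synthesis in interneurons, had 6.74 and 6.80 with olaparib, against 7.42 and 7.47 with DMSO, and fell by 0.67 (SE 0.077). The TALE factor Meis1 fell by 0.45 (SE 0.10, adjusted p = 0.0116). Meis2, which binds with Pax6 at neuronal genes, had 9.34 and 9.63 with olaparib, against 9.93 and 9.84 with DMSO. Its change of -0.40 had an adjusted p of 0.0533, and like Nfix it had separated groups and missed the threshold narrowly. Without olaparib replicate 1 it was -0.26. Neurog2, Neurod1, Eomes, Tbr1 and Sp8 were too dim to test. The olaparib mean of Gad2, 6.77, and the DMSO mean of Hmga2, 6.95, lay below 7.09, the highest mean among genes of unrelated tissues, so the size of either change is uncertain.

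SoxC targets had the lowest median of the lists, -0.32 over 7 tested genes, and 3 fell and 0 rose, where 3.37% of all genes tested fell. Tubb3, Dcx, Map2, Stmn2, Elavl3 and Elavl4 of this list are also among the neuronal markers above, so the counts share genes. Dcx, which binds microtubules in young migrating neurons and is a target of Sox4 and Sox11 in adult mouse neurogenesis, had 8.02 and 8.12 with olaparib, against 9.04 and 9.20 with DMSO, and fell by 1.05 (SE 0.10). Prox1, another such target, had 8.26 and 8.51 with olaparib, against 9.03 and 8.91 with DMSO, and fell by 0.58 (SE 0.11, adjusted p = 0.0023 in limma). Map2, a microtubule protein of dendrites, fell by 0.55 (SE 0.13, adjusted p = 0.0115). Tubb3, a neuronal tubulin bound by SoxC factors, had 8.89 and 9.23 with olaparib, against 9.39 and 9.36 with DMSO (change -0.32, adjusted p = 0.134). Like Sox4 it was lowest on olaparib replicate 1, with a change of -0.15 without that array and -0.49 without olaparib replicate 2 (adjusted p = 0.000395 in limma, again with only the DMSO pair for spread). Without that array the median of the SoxC targets was -0.15, and without olaparib replicate 2 it was -0.49.

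Of 16 glial genes associated with nuclear factor I proteins all were tested, 3 fell and 0 rose, and 15 changes were below 0, with a median of -0.11. Among all genes tested 3.37% fell and 49.5% of changes were below 0. Olaparib replicate 1 lay below olaparib replicate 2 in 15 of the 16, against 55.4% of all genes tested. Gfap, the filament protein of astrocytes whose promoter binds nuclear factor I, had 8.89 and 9.35 with olaparib, against 10.16 and 10.15 with DMSO. Mmd2, a target of Nfia and Sox9 in spinal cord glia, had 9.61 and 9.69 with olaparib, against 10.62 and 10.52 with DMSO. Aqp4, the water channel of astrocytes, had 9.68 and 9.84 with olaparib, against 10.46 and 10.48 with DMSO. All 3 had separated groups and fell by 0.71 to 1.03. Gfap and Aqp4 are also the 2 genes that fell among the astrocyte and neural stem cell markers. Slc1a3, Slc1a2, Aldoc, Aldh1l1, S100b and Fabp7 are in both lists too, so the counts and the order of the olaparib arrays share genes. Apcdd1 and Zcchc24, further targets of Nfia and Sox9, had changes of -0.20 (adjusted p = 0.148) and -0.11 (adjusted p = 0.692). Without olaparib replicate 1 the median of this list was -0.0099, and without olaparib replicate 2 it was -0.20.

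Of 8 partners and targets of Pou3f factors 6 were tested, 2 fell and 0 rose, where 3.37% of all genes tested fell. Myt1, a zinc finger factor of neuronal commitment, had 6.89 and 6.67 with olaparib, against 7.46 and 7.33 with DMSO, and fell by 0.61 (SE 0.086). The Notch ligand gene Dll1, whose enhancer binds a Pou3f factor, had 6.98 and 6.97 with olaparib, against 7.19 and 7.44 with DMSO, and fell by 0.34 (SE 0.086, adjusted p = 0.0217 in limma). The olaparib means of Myt1, 6.78, and Dll1, 6.98, also lay below the highest of the unrelated genes at 7.09, so the size of these changes is uncertain too. Nes, whose neural enhancer binds Sox2 and Pou3f2, differed by 0.23 (adjusted p = 0.205). When all probe sets shared 1 fit, Dcx alone among the listed genes named here passed. Calls were also lost when a DMSO array was left out, without replicate 1 for Prox1, without replicate 2 for Hmga2 and Dll1, and without either for Meis1 and Map2. Dll1 did not pass without a filter on dim genes or in eBayes without trend, nor Meis1 under median centring.

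**Figure D4:**
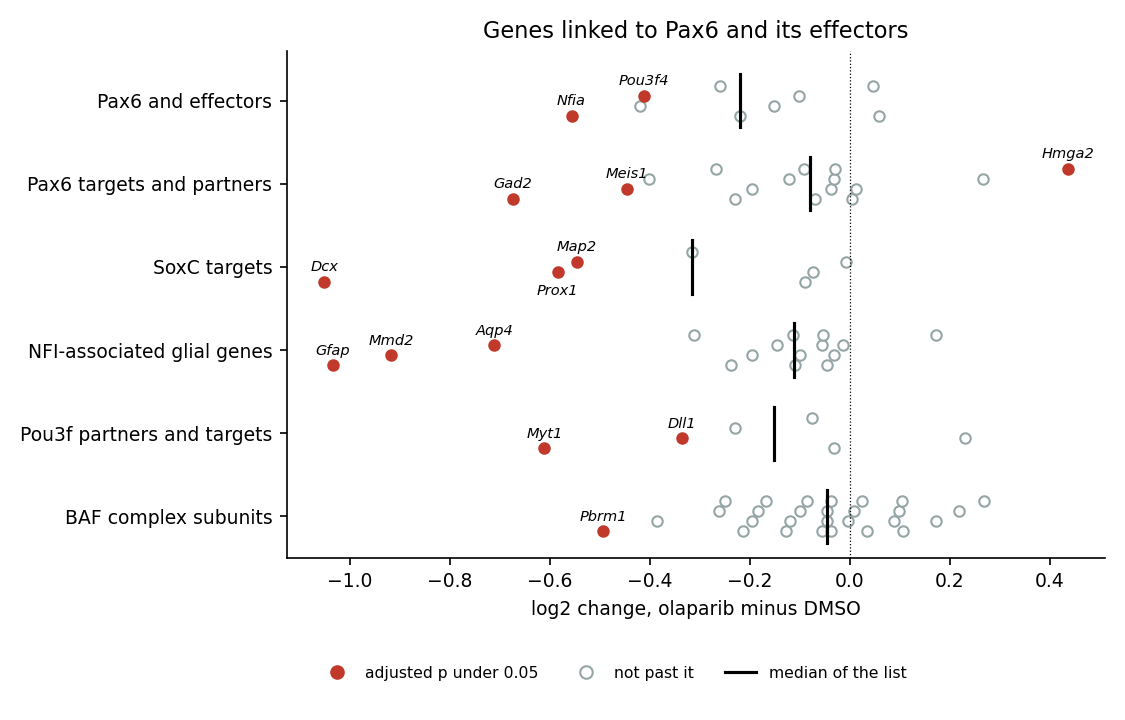
Log2 change, olaparib minus DMSO, of every tested gene in 6 lists, with 1 point a gene and a bar at the median of the list. Filled, named points passed an adjusted p of 0.05 in limma. The points that passed lie below 0 but for Hmga2 at 0.44, and the medians run from -0.32 for SoxC targets to -0.046 for BAF complex subunits.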

How the data were processed

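The deposited table holds the authors' processed log2 values, 1 per probe set and array, for 34760 probe sets on 4 Affymetrix arrays. Per the labels' protocols, 40 ng of total RNA per sample was amplified and labelled with biotin. Background correction, normalization and summary of probes are not given in the sources used here, nor are batches or scan dates, so their effect on the values was not tested. The number of arrays limits the precision.

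The platform annotation gave 21640 probe sets a single gene and 1321 several, and left 11799 unnamed. Names were updated through the RefSeq gene table of GRCm38.p6, which held 19855 of 19937 genes. The brightest probe set of a gene was used, and only genes whose mean exceeded the 30th percentile (6.42 in log2 units) entered the test. Changes, olaparib minus DMSO, came from limma 3.58.1 (R 4.3.3), using lmFit followed by eBayes with an intensity trend. Tests were two-sided, and p-values of the 13956 genes were adjusted together after Benjamini and Hochberg. The spread of a gene rests on 2 residual degrees of freedom and a prior worth 18.1. On simulated data for this comparison the fit recovered 64% of genes changed by 1.3-fold and 99.3% at 1.5-fold, with 4.28% false calls. The simulated spreads followed the prior of the fit around 1 common value, with no intensity trend. These shares therefore do not describe bright genes with a larger spread, such as Nfix (SE 0.13). The median SD of a gene was 0.077 for olaparib and 0.048 for DMSO.

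The 9 genes and the lists were chosen with earlier results of these data known. The text names all 9, genes past the threshold in the lists of targets, partners and BAF subunits, Meis2, Tubb3, Dcx, Gfap and Smarca4, and for each called factor the 3 genes whose centred log2 values over the 4 arrays lay nearest by Euclidean distance. Genes outside this rule, such as the markers Nsg2, Gap43 and Cspg4, were picked with their values in view. The alternatives were other filters on dim genes, normalizations and variance models, a floor, other probe sets, all probe sets in 1 fit, an adjusted p of 0.1 and leaving out each array. Those for list medians and for genes outside the 9 were added after seeing the data. Plots used matplotlib 3.10.9 (Python 3.11.15).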

Additional observations from a re-analysis of the deposited data

How the results depend on the processing

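The calls of Nfia and Pou3f4 held under the other filters, normalizations, variance models and probe sets run, except when all 21704 probe sets shared 1 fit in limma (adjusted p = 0.129 and 0.136, with 0 of the 9 genes lower and 3 at an unadjusted p under 0.05). Over the fits without 1 array, 0 to 4 of the 9 genes were lower. The 0 came without either DMSO array, where 3 were lower at an unadjusted p under 0.05 and all within-group spread was that of the olaparib pair, the wider of the groups. The 4 came without olaparib replicate 2 and were Nfia, Nfix, Pou3f4 and Sox4. In every setting run 0 of the 9 genes were higher, and 0 at an unadjusted p under 0.05. Over 147 alternatives of the 9 genes, 127 kept direction and side of the threshold, 6 lost a call, 9 gained one and 5 changed sign. Some could not lose a call, since the floor left the 9 genes unchanged and an adjusted p of 0.1 reused the same fit. Filters and variance models cannot change a direction, and a gene far from the threshold readily keeps its side, so the 127 is no measure of robustness. With each array left out in turn, signs changed for Nfib (-0.25 to 0.045, above 0 without olaparib replicate 1), Smarca4 (-0.22 to 0.043, likewise), Pax6 (-0.019 to 0.14, below 0 without olaparib replicate 2), Pou3f2 (-0.41 to 0.11, above 0 without DMSO replicate 2) and Pou3f3 (-0.036 to 0.13, below 0 without DMSO replicate 2 and, at -0.0098, without olaparib replicate 2). Nfix passed with a filter at the 50th percentile, quantile or cyclic loess normalization, without trend, with robust eBayes, array weights or an adjusted p of 0.1, and without olaparib replicate 2. Over all genes tested, 397 were higher and 471 lower. There were 257 higher without a filter, 779 lower with quantile normalization and 732 with cyclic loess, 606 higher and 715 lower at an adjusted p of 0.1, and 1 higher and 11 lower with all probe sets in the fit. Without 1 array the counts ran from 97 to 1274 higher and from 161 to 1032 lower. No paired analysis was possible because the labels give the groups fewer than 2 replicate numbers in common, and the numbers 1 and 2 used here only name the arrays. Signal over background limits Pou3f3, whose levels lay close to those of genes of unrelated tissues, and Gad2, Myt1, Dll1, Hmga2 and Cspg4, with a group mean within that range. The same holds for Sox12, Apcdd1 and the dimmer Pou3f2 probe set, with olaparib means of 7.03, 6.96 and 7.04.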

Other observations

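The BAF complex, the chromatin remodeller that Pax6 recruits, was measured through 28 subunit genes, all of them bright enough to test. In limma 1 fell, 0 rose and 27 missed the threshold, with a median log2 change of -0.046, or -0.11 without olaparib replicate 2. The share that passed was 3.57%, below the 6.22% of all genes tested. At an unadjusted p under 0.05 there were 9, or 32.1%, where 19.1% of all genes tested reached that p, and among the 9 Actl6a (0.27) and Bcl7b (0.17) were higher with olaparib. The subunit gene that fell was Pbrm1, with 9.08 and 9.19 with olaparib, against 9.68 and 9.57 with DMSO. Its change was -0.49 (SE 0.11, adjusted p = 0.00998). The call of Pbrm1 was lost when either DMSO array was left out, under median centring, with the mean of its probe sets (-0.23) and with all probe sets in the fit. Smarca4, the motor subunit, had 9.59 and 9.85 with olaparib, against 9.83 and 9.78 with DMSO, and a change of -0.086 (adjusted p = 0.800). Smarcc2, a core subunit named after its values were seen, had separated groups and a change of -0.39 that missed the threshold (adjusted p = 0.0539).

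The genes with values over the 4 arrays most like those of Nfia, among 13127 compared, were Il6st at a distance of 0.031, Bfsp2 at 0.034 and Hnrnpm at 0.036 on the log2 scale. Il6st, the shared receptor subunit for cytokines of the interleukin 6 family, had 9.19 and 9.38 with olaparib, against 9.85 and 9.87 with DMSO. For Pou3f4 the nearest were Sf3b3 at 0.026, Rgs2 at 0.027 and Mpdz at 0.033. Sf3b3, a splicing factor gene, had 7.76 and 7.87 with olaparib, against 8.18 and 8.28 with DMSO. The next gene in order was at 0.047 for Nfia and 0.034 for Pou3f4.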
